A study of Rattus norvegicus with 9 samples.

Results

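Expression of 10 circadian clock genes was followed in rat uterus. They were Dbp, Tef, Nr1d1, Nr1d2, Per1, Per2, Per3, Cry1, Cry2 and Clock, picked by the gene symbol that the array's platform annotation gives to each probe set. The array carried 20 probe sets for these 10 genes, among 31042 probe sets that were not Affymetrix controls, and the probe set with the highest mean over all arrays stood for its gene. All 10 genes were among the 10973 genes tested, and on 9 of 9 arrays their main probe sets were no dimmer than the 40th percentile.

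Total RNA of uterine tissue from female rats was hybridised to 9 Affymetrix arrays, 3 per group. Treatment rats (arrays 31, 32 and 33) were needled with current (electroacupuncture) at 2 points, Guanyuan and Sanyinjiao, in sessions of 15 min over 7 days and then through the induction of ovulation. Induction began with 0.5 U of pregnant mare serum gonadotropin (PMSG), a hormone that drives follicle growth, and 48 h later the same amount of human chorionic gonadotropin, which triggers ovulation. Model rats (21, 22 and 23) had the induction alone, and control rats (41, 42 and 43) had neither. The labels describe 18 rats in groups of 6, give no strain, age, oestrous stage or clock time of tissue collection, and do not tie arrays to single animals, so p-values measure the spread between these arrays, which may be technical.

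The circadian clock is a feedback loop of transcription. CLOCK and BMAL1 together bind E-box sequences and switch on the Per and Cry genes, whose proteins return to block CLOCK and BMAL1. The same pair drives Nr1d1 and Nr1d2, which encode the repressors REV-ERB alpha and REV-ERB beta of the Bmal1 gene. It also drives Dbp and Tef, whose PAR bZIP proteins activate further genes through D-box sequences. The rodent uterus has such a clock of its own, so the level of these transcripts depends on the hour at which tissue is taken.

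The promoters of 9 of the 10 genes were found in RefSeq (build GRCr8), as 11 windows, and Cry1 was not among them. In the 250 bases before each annotated start, 5 motifs were searched on both strands, and no 2 matches in a window overlapped. The E-box CACGTG stood before Tef and before 1 of the 2 starts of Nr1d1, and in 5.59% of all 33469 windows of that length. The related CACGTT stood before Per2, Cry2 and the other start of Nr1d1, and in 4.07% of all windows. The D-box TTATGNAA stood before Per2 (3.28% of all windows) and the core motif of REV-ERB and ROR receptors, AGGTCA, before Nr1d2 (14.1%). The cyclic AMP response element TGACGTCA was in 0 of the 11 windows and in 1.59% of all. A match of letters is a description of the sequence and not a site of binding. The windows of Dbp, Per1, Per3 and Clock held none of the 5 motifs. Sequence outside these 250 bases was not searched, so the absence of a motif holds for the windows alone. The 4 windows below show each kind of motif that was found, 5′ to 3′ on the gene's strand, with the matched motif in capitals. Tef lies on the plus strand (chr7:115206577-115206826), Nr1d1 on the minus strand (chr10:84229455-84229704), Per2 on the minus strand (chr9:99496994-99497243) and Nr1d2 on the plus strand (chr15:9954784-9955033).
Tef: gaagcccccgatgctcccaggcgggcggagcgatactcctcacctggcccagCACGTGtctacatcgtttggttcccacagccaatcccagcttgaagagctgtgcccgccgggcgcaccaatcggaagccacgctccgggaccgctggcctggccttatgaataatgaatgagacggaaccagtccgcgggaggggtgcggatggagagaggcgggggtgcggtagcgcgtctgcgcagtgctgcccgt
Nr1d1: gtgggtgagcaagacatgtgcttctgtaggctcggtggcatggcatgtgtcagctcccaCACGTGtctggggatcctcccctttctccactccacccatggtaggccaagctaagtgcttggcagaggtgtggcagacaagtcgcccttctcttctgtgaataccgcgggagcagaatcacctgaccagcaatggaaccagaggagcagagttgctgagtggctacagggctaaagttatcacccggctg
Per2: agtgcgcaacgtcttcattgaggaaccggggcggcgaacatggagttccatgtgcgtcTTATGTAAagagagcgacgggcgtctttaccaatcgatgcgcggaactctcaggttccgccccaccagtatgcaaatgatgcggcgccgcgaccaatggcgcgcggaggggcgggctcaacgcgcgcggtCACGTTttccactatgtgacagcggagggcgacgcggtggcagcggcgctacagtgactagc
Nr1d2: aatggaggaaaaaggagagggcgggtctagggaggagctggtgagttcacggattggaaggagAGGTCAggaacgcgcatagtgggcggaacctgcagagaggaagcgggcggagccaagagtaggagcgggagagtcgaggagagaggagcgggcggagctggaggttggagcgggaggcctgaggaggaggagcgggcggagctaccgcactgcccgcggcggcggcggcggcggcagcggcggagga

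Values are the deposited probe set intensities on a linear scale. Fold changes and group means are on the scale of log2(intensity + 16), which understates changes of dim genes. A gene passed at a Benjamini-Hochberg adjusted p under 0.05 over all 10973 genes, by limma on all 9 arrays. Control 43 stood apart from its group: over all probe sets its log2 values correlated at r = 0.94 with control 41 and 0.96 with control 42, and at 0.98 with model 21. Its ratio of 3′ to 5′ signal of the Actb control probes, a measure of RNA integrity, was 7.84, the highest of the 9 arrays (5.07 to 7.84). Treatment 33 had the next highest ratio, 7.00. The same ratio of the Gapdh probes ranked the arrays differently, with 1.12 on treatment 33, 1.39 on model 21, the highest, and 1.2975 on control 43. Markers of uterine tissue were present: all 10 smooth muscle, 12 epithelial and 13 of 14 stromal marker genes were tested, while the oestrogen receptor gene Esr1 lay under the 40th percentile on every array. Of 7 ovary markers 2 were tested, and of 2 oviduct markers 0. In whole tissue, fewer cells of a type and less RNA per cell cannot be told apart.

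No clock gene passed the test between groups, but 5 of the 10, grouped after their values were seen, divided the arrays alike. Dbp, Tef, Nr1d1, Nr1d2 and Per3 were high on all 3 model arrays, on control 43 and, mostly to a lesser degree, on treatment 33. They were lower on treatments 31 and 32 and on controls 41 and 42. The division was narrow for Per3, where treatment 33 (55.5) lay within the model range and control 41 (49.8) just below model 23 (50.5). Clock varied least of the 10 genes between arrays, and Per2 ran the other way among the controls.

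Dbp, the albumin D-site binding protein and a direct target of CLOCK and BMAL1, measured 52.8, 47.4 and 83.1 on treatment arrays, 89.3, 101 and 111 on model arrays, and 64.4, 47.3 and 117 on control arrays. Every treatment array lay below every model array, whereas the controls spanned the whole range, with control 42 the lowest and control 43 the highest of all 9. Tef, the thyrotroph embryonic factor of the same PAR bZIP family, measured 79.4, 70.1 and 88.4 on treatment arrays, 94.7, 97.8 and 97.5 on model arrays, and 81.7, 78.2 and 99.6 on control arrays. Its model values were close to each other and above all treatment values, and control 43 was again the highest array.

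Nr1d1, the gene of REV-ERB alpha, measured 24.7, 18.5 and 34.8 on treatment arrays, 51.9, 45.6 and 41.3 on model arrays, and 33.1, 28.1 and 47.0 on control arrays. Treatment and model arrays did not overlap, and the value of treatment 32 lay just above the 40th percentile of that array (16.1). Nr1d2, the gene of REV-ERB beta, measured 99.4, 70.8 and 148 on treatment arrays, 161, 202 and 183 on model arrays, and 115, 95.01 and 179 on control arrays. Again all treatment arrays were below all model arrays, with treatment 33 the nearest to them. Per3, a period gene that follows the clock more than it drives it, measured 28.9, 30.5 and 55.5 on treatment arrays, 61.0, 53.4 and 50.5 on model arrays, and 49.8, 46.3 and 71.4 on control arrays. Treatments 31 and 32 were below all other arrays, and treatment 33 lay within the model range.

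**Figure D1:**
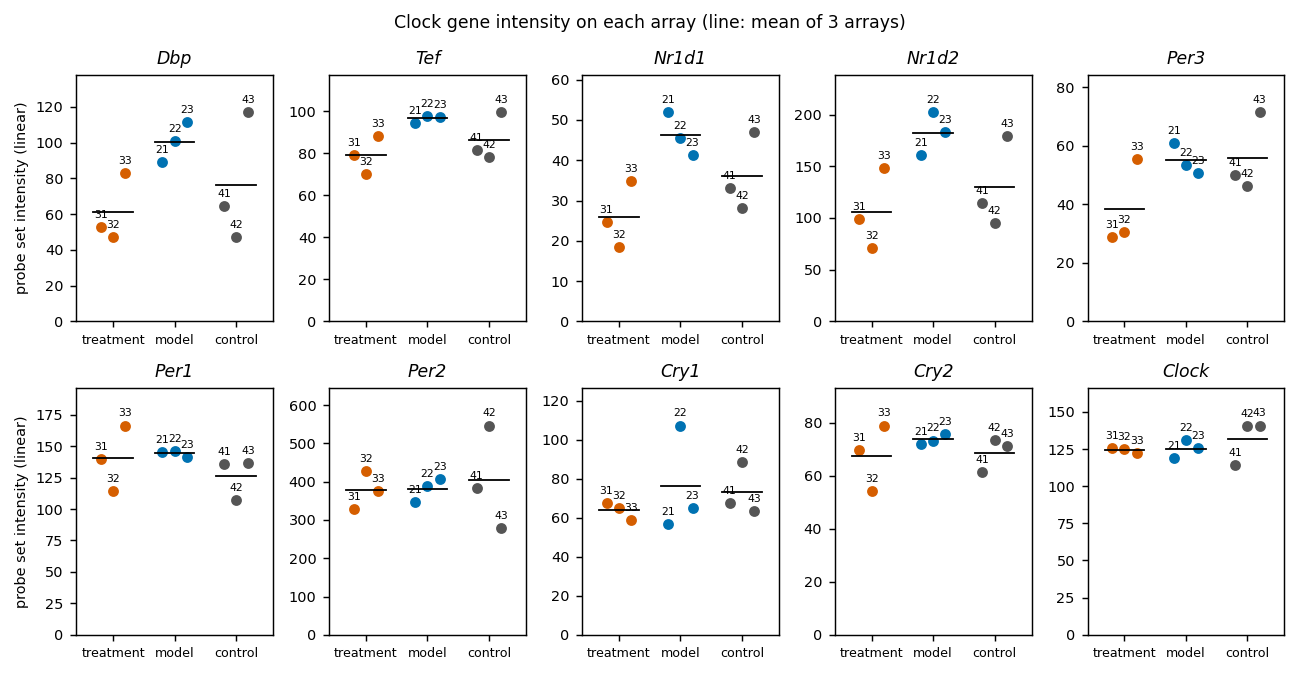
Probe set intensity (linear scale, y axis from 0) of each clock gene on every array, by group, with the array number beside each point and a line at the mean of 3 arrays. For Dbp, Tef, Nr1d1, Nr1d2 and Per3 the same 4 arrays are the lowest (treatments 31 and 32, controls 41 and 42), and for the genes of the lower row they are not.

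The feedback genes behaved differently. Per1, the period gene that hormones and cyclic AMP induce most readily, measured 139.9, 114 and 166 on treatment arrays, 146, 146 and 142 on model arrays, and 136, 107 and 137 on control arrays. The model arrays lay narrowly above all controls and inside the treatment range. Per2, its partner in the repressor complex, measured 329, 429 and 376 on treatment arrays, 346, 389 and 408 on model arrays, and 384, 547 and 279 on control arrays. The highest and the lowest value of Per2 were both controls, 42 and 43, so the 3 groups overlapped throughout.

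Cry1, a cryptochrome repressor, measured 67.7, 64.9 and 59.1 on treatment arrays, 57.0, 107 and 64.9 on model arrays, and 67.6, 88.7 and 63.4 on control arrays. Model 22 was high and stood alone in its group. Cry2, the second cryptochrome, measured 69.6, 54.4 and 79.0 on treatment arrays, 72.2, 73.4 and 75.8 on model arrays, and 61.6, 73.4 and 71.3 on control arrays. Clock, the activator itself, measured 126, 125 and 122 on treatment arrays, 119, 131 and 126 on model arrays, and 114, 140.4 and 141 on control arrays. Both genes overlapped in all groups. The whole range of Clock over the 9 arrays was 0.27 on the log2 scale, smaller than that of all but 11.3% of the genes tested. Nr1d2 had the widest range among the clock genes, 1.33, and 89.7% of the genes tested had a smaller one.

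The comparison of treatment with model arrays asked what electroacupuncture changed in induced rats, and gave the largest differences. Of the 10 clock genes 0 passed by limma, and 0% of all genes tested passed. At an unadjusted p under 0.05, 3 clock genes were lower in treatment arrays, against 10.1% of all genes. The log2 fold change was below 0 for 10 of 10 clock genes, as for 61.1% of all genes, with a median of -0.21 against -0.05 over all genes. Treatment and model arrays did not overlap for 4 clock genes, all lower in treatment (Dbp, Nr1d1, Nr1d2 and Tef), and for 19.9% of all genes in that direction.

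Nr1d2 averaged 6.88 ± 0.46 in treatment and 7.63 ± 0.15 in model arrays (log2 scale, SD, n = 3 each), a log2 fold change of -0.74 (SE 0.26, limma adjusted p = 0.29). Its 95% confidence interval ran from -1.35 to -0.14. Dbp averaged 6.24 ± 0.34 in treatment and 6.86 ± 0.14 in model arrays, a log2 fold change of -0.62 (SE 0.27, limma adjusted p = 0.342) with an interval of -1.24 to 0.001. Nr1d1 averaged 5.37 ± 0.28 and 5.96 ± 0.12 in treatment and model arrays, a log2 fold change of -0.58 (SE 0.17, limma adjusted p = 0.286). It ranked 292 by p among the 10973 genes, the best place of any clock gene in any comparison. Per3 differed by -0.42 (limma adjusted p = 0.364) and Tef by -0.25 (0.338). The other clock genes differed by -0.17 (Cry1) to -0.01 (Clock). The interval of Clock, -0.22 to 0.20, allows at most a small difference for its main probe set. That of Per2, -0.51 to 0.48, includes a difference as large as that measured for Per3. In a fit over all probe sets, another probe set of Clock gave -0.185 in treatment against model, with an interval of -0.414 to 0.044. A larger decrease of Clock is therefore not excluded.

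The differences were larger without treatment 33, which moved Nr1d2 to -0.98, Dbp to -0.82, Nr1d1 to -0.73 and Per3 to -0.63 in treatment against model arrays, the last by over 1.5 times. Without treatment 32 the differences were smaller, at -0.52 for Nr1d2, -0.49 for Dbp, -0.45 for Nr1d1 and -0.32 for Per3. Without treatment 33, 5 clock genes reached an unadjusted p under 0.05, against 9.46% of all genes lower. After adjustment 0 of them passed (limma, smallest adjusted p = 0.307), as did 0% of all genes. Without control 43, the same 5 genes reached an unadjusted p under 0.05 (15.0% of all genes lower), and 0 passed (limma, smallest adjusted p = 0.144). That array is not part of this comparison. Leaving it out kept these fold changes the same and only lowered the spread estimated over all groups, with the SE of Dbp at 0.18 in place of 0.27. The probe sets of a gene did not always run alike. In a fit over all probe sets, a second probe set of Nr1d2 gave -0.47 and a second one of Per2 gave 0.26, where its main probe set gave -0.02. A dimmer probe set of Tef, at or above the 40th percentile on 8 arrays, gave 0.00 where the main one gave -0.25.

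**Figure D2:**
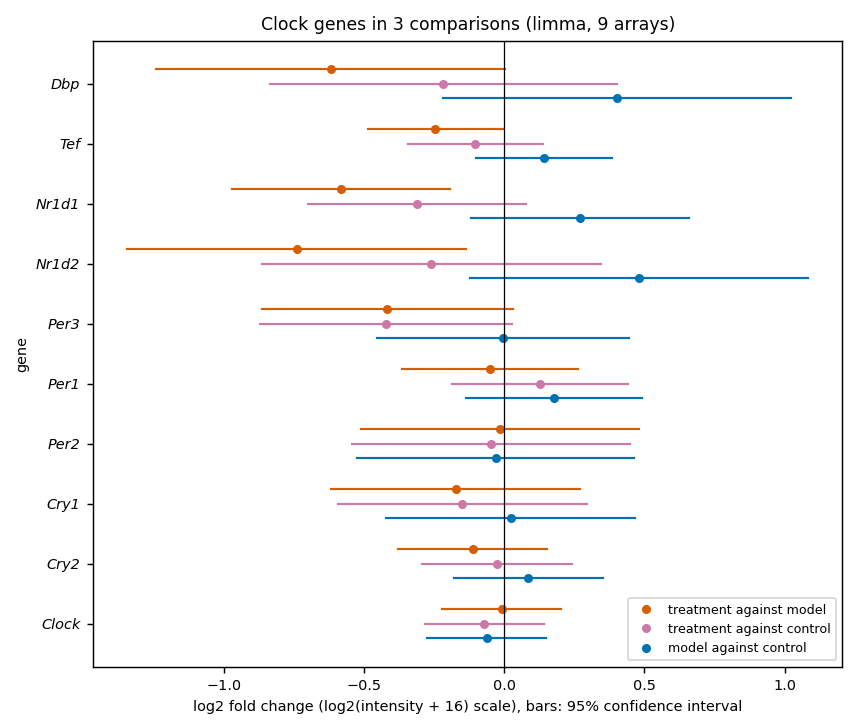
Log2 fold change (x axis) of each clock gene in treatment against model, treatment against control and model against control, from limma on 9 arrays, with 95% confidence intervals as bars. The estimates of Nr1d1 and Nr1d2 in treatment against model are the furthest from 0 relative to their intervals, and no gene passed after adjustment over 10973 genes.

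The comparison of treatment with control arrays asked what induction and electroacupuncture changed together. Of the 10 clock genes 0 passed by limma and 0 had an unadjusted p under 0.05, where 0.510% and 17.4% of all genes did. Per3 had the largest difference, averaging 5.73 ± 0.37 in treatment and 6.15 ± 0.26 in control arrays (SD, n = 3 each), a log2 fold change of -0.42 (SE 0.20, limma adjusted p = 0.312). Nr1d1 differed by -0.31, Nr1d2 by -0.26 and Dbp by -0.22, with adjusted p of 0.376 to 0.717. Nr1d2 moved to -0.03 without control 43, to -0.04 without treatment 32, to -0.50 without treatment 33 and to -0.44 without control 42. Of the 10 genes 9 had a log2 fold change below 0, as did 57.8% of all genes. The groups overlapped for all 10, where 23.3% of all genes had groups that did not, and Dbp turned to 0.08 without control 43. Without treatment 33, Per3 was at -0.64 and Nr1d1 at -0.46 (limma adjusted p = 0.213 and 0.291), the 2 clock genes with an unadjusted p under 0.05 there, against 8.91% of all genes lower and 0% passing.

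The comparison of model with control arrays asked what ovulation induction alone changed, and it shares its controls with the preceding one. Of the 10 clock genes 0 passed by limma and 0 had an unadjusted p under 0.05, where 0.0273% and 12.4% of all genes did. Nr1d2 averaged 7.63 ± 0.15 in model and 7.14 ± 0.42 in control arrays, a log2 fold change of 0.48 (SE 0.26, limma adjusted p = 0.467). Dbp averaged 6.86 ± 0.14 in model and 6.46 ± 0.55 in control arrays, a log2 fold change of 0.40 (SE 0.27, limma adjusted p = 0.522). Nr1d1 differed by 0.27, Per1 by 0.18 and Tef by 0.14. Per1 alone had groups that did not overlap, with model above control, as 7.79% of all genes had. Its mean was 7.33 ± 0.02 in model and 7.15 ± 0.18 in control arrays.

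The estimates of this comparison depended on single controls. Without control 42 the log2 fold change was 0.31 for Nr1d2, 0.17 for Dbp, 0.16 for Nr1d1, 0.08 for Tef and 0.07 for Per1. Without control 43 the log2 fold change was 0.71 for Nr1d2, 0.70 for Dbp, 0.42 for Nr1d1 and 0.23 for Tef, which for Dbp, Nr1d1 and Tef is over 1.5 times the value with all arrays. The smallest adjusted p was 0.0598, for Dbp, so 0 clock genes passed by limma, while 12.6% of all genes did. At an unadjusted p under 0.05 there were then 4 clock genes, all higher in model arrays, against 16.9% of all genes. For the mean of both induced groups against control, 0 clock genes passed and 0 had an unadjusted p under 0.05 (0.574% and 15.3% of all genes). Their estimates ran from -0.21 for Per3 to 0.15 for Per1.

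The likeness among these genes was described with Dbp as the yardstick, in 9 relations over the 9 arrays. Tef followed Dbp at Pearson r = 0.964 (exact permutation p = 1.1e-05, Benjamini-Hochberg adjusted p = 9.92e-05 over 9 relations) and Spearman rho = 0.967 (exact p = 0.000165, adjusted 0.00149). Nr1d2 followed it at r = 0.956 (exact permutation p = 0.000127, adjusted 0.00057) and rho = 0.917 (exact p = 0.00131, adjusted 0.0059). Nr1d1 had r = 0.884 (exact permutation p = 0.00236, adjusted 0.00708) and rho = 0.833 (exact p = 0.00827, adjusted 0.0248). Per3 had r = 0.789 (exact permutation p = 0.00815, adjusted 0.0183) and rho = 0.783 (exact p = 0.0172, adjusted 0.0388). All these tests were two-sided. They shuffled all 9 arrays freely, without regard to group. Their p-values therefore do not allow for differences between groups or for patterns that many genes share over these arrays.

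These 4 relations held without treatment 32 and control 42, the arrays farthest from the median of Dbp, with r of 0.977 for Tef, 0.952 for Nr1d2, 0.838 for Nr1d1 and 0.794 for Per3 over 7 arrays. After each group's mean was subtracted, r over the 9 arrays was 0.945 for Tef, 0.929 for Nr1d2, 0.826 for Nr1d1 and 0.81 for Per3, and 0.747 for Per1 and -0.716 for Per2. An r at least as high after that step was found in 0.319%, 0.51%, 3.37% and 4.23% of all genes for the first 4 and in 8.13% for Per1. Within the 3 model arrays alone, Nr1d1 and Per3 ran opposite to Dbp. Per1 (r = 0.641, exact permutation p = 0.0641, adjusted 0.115; rho = 0.567, exact p = 0.121, adjusted 0.217) and Per2 (r = -0.542, exact permutation p = 0.131, adjusted 0.169; rho = -0.483, exact p = 0.194, adjusted 0.291) did not reach the threshold. Without the same 2 arrays their r was 0.052 and -0.064. Cry1, Cry2 and Clock had r of -0.084, 0.555 and 0.099 (exact permutation p = 0.838, 0.122 and 0.793, adjusted p = 0.838, 0.169 and 0.838) and rho of -0.3, 0.3 and 0.25 (exact p = 0.437, 0.437 and 0.521, adjusted p = 0.491, 0.491 and 0.521). Without the same 2 arrays their r was 0.119, 0.517 and 0.588.

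**Figure D3:**
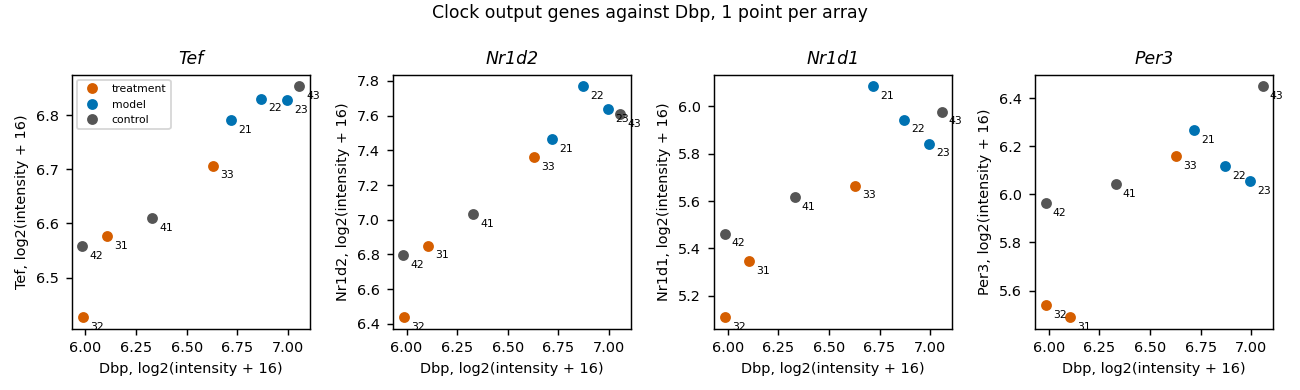
Log2(intensity + 16) of Tef, Nr1d2, Nr1d1 and Per3 (y axes) against Dbp (x axis), 1 point per array with its number, coloured by group. All 4 genes are low on treatment 32 and control 42 and high on control 43, while within the model arrays Nr1d1 and Per3 run opposite to Dbp.

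The likeness was close but not particular to clock genes. An r with Dbp at least as high as that of Tef was found in 0.0365% of the other genes tested, as high as that of Nr1d2 in 0.0911%, as high as that of Nr1d1 in 1.01% and as high as that of Per3 in 6.11%. Among the 5 genes outside the clock with the highest r over the 9 arrays were Lrrc17 (0.968), the nucleoside diphosphate kinase gene Nme3 (0.968), Tprkb (0.966), the CpG-binding factor gene Cxxc1 (0.96) and Igf2r, the receptor for insulin-like growth factor 2 (0.96). The 5 with the lowest r were the fatty acid hydroxylase gene Fa2h (-0.961), Stbd1 (-0.952), the tubulin gene Tubb4b (-0.948), Ces5a (-0.944) and Adh6a (-0.942).

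In 6 of the 10 clock genes, control 43 was the highest control and treatment 33 the highest treatment array, as in 21.0% of all genes. In 5 of the 10 (Dbp, Tef, Nr1d1, Nr1d2 and Per3) the 4 lowest arrays were treatments 31 and 32 with controls 41 and 42, as in 6.75% of all genes. That division was noticed in the values and is a description only.

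Endothelial markers, and nerve and glia markers, showed part of this division, and the other cell types less of it. The summed intensity of 6 tested endothelial markers was 729, 275 and 687 on treatment arrays, 806, 912 and 833 on model arrays, and 535, 553 and 1092 on control arrays. Treatment 32 was the lowest and control 43 the highest array, and no model array overlapped the treatment arrays, but treatment 31 lay above treatment 33. The 3 tested nerve and glia markers summed to 651, 505 and 601 on treatment arrays, 671, 740 and 703 on model arrays, and 401, 543 and 690 on control arrays. Here too model and treatment arrays did not overlap and control 43 lay in the model range, but treatment 31 lay above treatment 33. Most of that sum was Pmp22, as S100b and Sox10 were dim (at most 22.0 and 17.83). The 13 tested stromal markers summed to 8505 to 13308 on treatment arrays, 11546 to 14995 on model arrays and 8346 to 15711 on control arrays, with control 43 the highest and treatment 31 above both treatment 33 and model 23. The 12 epithelial markers summed to 4114 to 6341 on treatment arrays, 3611 to 4729 on model arrays, 19854 and 14513 on controls 41 and 42 and 4732 on control 43. The 10 smooth muscle markers summed to 21570.0 to 26255 on treatment arrays, 22397 to 26618 on model arrays and 13899 to 22525 on control arrays. In treatment against model the log2 fold change was below 0 for 61.1% of all genes (median -0.05). It was below 0 for 6 of 6 endothelial markers (median -0.68), 11 of 13 stromal (-0.32), 6 of 7 leukocyte (-0.52) and 4 of 4 adipocyte markers (-0.47). Of 3 nerve and glia markers 2 were below 0 (-0.15). Of 12 epithelial markers 4 were below 0 and 8 above (median 0.57), and of 10 smooth muscle markers 7 were below 0 (-0.07). By limma 0 of these markers passed in treatment against model, treatment against control or model against control. In both induced groups against control 1 of the 12 epithelial markers passed, as did 0.574% of all genes. It was Prom1, at -2.45 (limma adjusted p = 0.0477). Cdh5, an endothelial cadherin gene, had no probe set with its symbol alone, and no marker measured was at 0. The part of cell makeup and of RNA integrity in the levels of the clock genes was not tested.

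Of 28 other genes of the clock 23 were tested and 0 passed by limma in any of the 4 comparisons, with 12 positive and 11 negative log2 fold changes in model against control (46.5% of all genes negative). At an unadjusted p under 0.05, 2 were lower in treatment against model, where 10.1% of all genes were. In treatment against control 1 was higher and 1 lower (6.54% and 10.8% of all genes), and in model against control 1 was lower (6.08%). Bmal1, the partner of CLOCK and the target of REV-ERB repression, measured 34.1, 32.99 and 22.0 on treatment arrays, 26.6, 23.8 and 24.5 on model arrays, and 26.6, 25.2 and 25.4 on control arrays. Treatments 31 and 32 were its 2 highest arrays, and the other 7 lay between 22.0 and 26.6. The difference of treatment from model was 0.15 (SE 0.10, limma adjusted p = 0.498) and that of treatment from control 0.12.

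Nfil3, the repressor that competes with Dbp and Tef at D-boxes and is itself repressed by REV-ERB proteins, measured 167, 208 and 138 on treatment arrays, 128, 139 and 151 on model arrays, and 125, 127 and 101 on control arrays. It too was highest on treatments 31 and 32, and lowest on control 43. It differed by 0.48 in treatment against control (SE 0.15, limma adjusted p = 0.175), where the groups did not overlap, and by 0.26 in treatment against model (adjusted p = 0.425). Rora, a ROR activator that shares its sites with REV-ERB proteins, differed by -0.32 in treatment against model (limma adjusted p = 0.37). Hlf, the third PAR bZIP gene, measured 39.7, 34.6 and 52.1 on treatment arrays, 32.1, 64.3 and 50.3 on model arrays, and 40.5, 105 and 45.6 on control arrays. Unlike Dbp and Tef it was highest on control 42, and treatment differed from model by -0.14 (limma adjusted p = 0.835).

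Bhlhe40, a repressor of E-box transcription that also answers to hormones and low oxygen, measured 19.6, 26.2 and 32.6 on treatment arrays, 9.98, 16.3 and 19.0 on model arrays, and 86.3, 67.6 and 17.2 on control arrays. Controls 41 and 42 were far above every other array, and control 43 lay inside the range of the induced rats. Model differed from control by -1.09 (SE 0.37, limma adjusted p = 0.331) and treatment from control by -0.65 (adjusted p = 0.394). Without control 43, Bhlhe40 passed the test in both comparisons, with a log2 fold change of -1.58 in model against control (limma adjusted p = 0.00356) and -1.15 in treatment against control (0.0102). Without that array 12.6% and 6.56% of all genes passed in these comparisons. Npas2, which can stand in for CLOCK, differed by 0.43 in model against control (limma adjusted p = 0.472), with model 21 at 84.7 and the other 8 arrays at 25.6 to 47.1. In treatment against model, Btrc, which targets PER proteins for breakdown, differed by -0.42 and Timeless by -0.37 (limma adjusted p = 0.286 and 0.31).

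**Figure D4:**
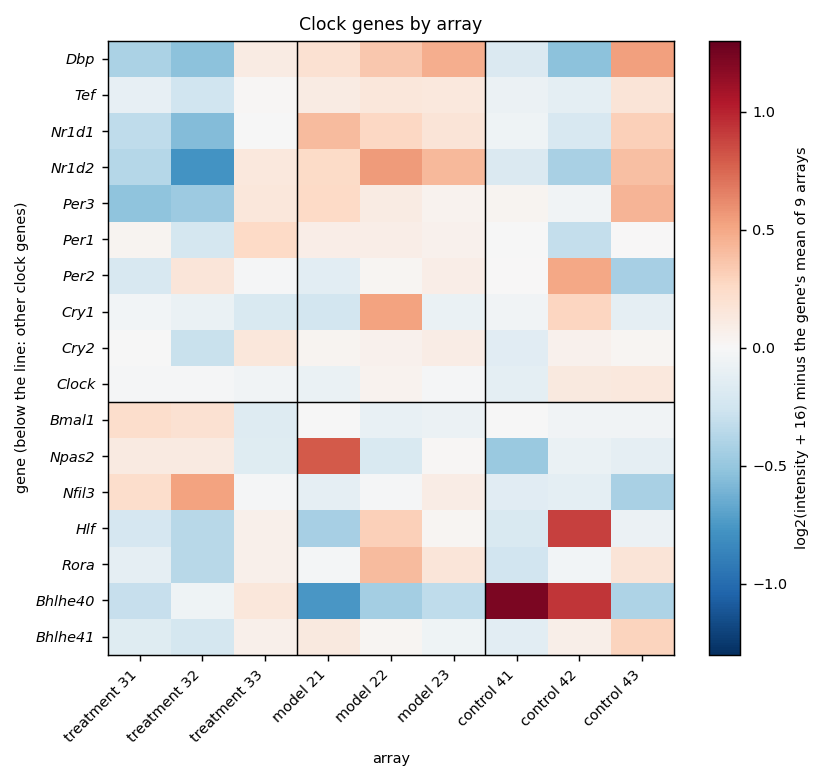
Colour shows log2(intensity + 16) of each gene minus its mean over the 9 arrays, with arrays in columns by group and genes in rows, the 10 clock genes above the line and 7 other clock genes below it. Bmal1 and Nfil3 are highest on treatments 31 and 32, where Dbp, Nr1d1, Nr1d2 and Per3 are low, and Bhlhe40 is high on controls 41 and 42 alone. On controls 41 and 42 Dbp, Nr1d1 and Nr1d2 are also below their means, but Bmal1 and Nfil3 are not as high there.

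Genes downstream of the clock gave no call either. Of 18 listed output genes 16 were tested, and 0 passed by limma in any comparison, while 2 were lower in treatment against model and 5 in treatment against control at an unadjusted p under 0.05, as were 10.1% and 10.8% of all genes. In model against control 1 was higher and 2 were lower at that level (6.37% and 6.08% of all genes). In treatment against model 12 of the 16 had a log2 fold change below 0, as had 61.1% of all genes, led by the taurine transporter gene Slc6a6 at -0.82 (limma adjusted p = 0.286), with a list median of -0.15 against -0.05 over all genes. In treatment against control 11 of the 16 were below 0, as were 57.8% of all genes, with Slc6a6 at -0.88, Dtx4 at -0.76 and Alas1, the first enzyme of haem synthesis, at -0.54 (limma adjusted p = 0.126, 0.0859 and 0.124). The list median there was -0.18, against -0.04 over all genes.

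Signals known to set Per1 and Per2 were examined last. Of 14 glucocorticoid response genes 13 were tested and 0 passed by limma in any comparison, while 4 were higher in treatment against control and 1 in model against control at an unadjusted p under 0.05, as were 6.54% and 6.37% of all genes. In treatment against model 1 was higher and 2 were lower at that level (4.57% and 10.1% of all genes). There 4 of the 13 were positive and 9 negative, where 61.1% of all genes were negative, with a median of -0.21 against -0.05 over all genes. In model against control 12 of the 13 were positive and 1 negative, where 46.5% of all genes were negative, with a median of 0.36 against 0.02 over all genes, led by Tsc22d3 at 0.80 (SE 0.19, limma adjusted p = 0.208). In treatment against control 8 of the 13 were positive and 5 negative, where 57.8% of all genes were negative. The list median there was 0.09, against -0.04 over all genes. Sgk1 was at 1.22 and Hsd11b1, which regenerates active glucocorticoid, at 3.38 (limma adjusted p = 0.124 and 0.126). Hsd11b1 measured 910.1, 1408 and 969 on treatment arrays, 68.9, 193 and 1407 on model arrays, and 115, 115 and 51.0 on control arrays. All treatment arrays and model 23 were high. Per1 and Per2 did not have this order of arrays, and the relation of glucocorticoid signals to their levels was not tested. Klf9, a Krüppel-like factor that both glucocorticoids and the clock regulate, measured 577, 369.9 and 557 on treatment arrays, 908, 1176 and 716 on model arrays, and 487, 514 and 876 on control arrays. Treatment and model arrays did not overlap and control 43 was the highest control, and it differed by -0.87 between them (SE 0.28, limma adjusted p = 0.286).

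Of 16 names listed for the cyclic AMP and immediate early response 14 were tested and 0 passed by limma in any comparison, while 1 was higher and 2 were lower in treatment against model at an unadjusted p under 0.05, as were 4.57% and 10.1% of all genes. Creb1, which encodes the cyclic AMP responsive factor that acts on Per1, measured 35.0, 34.5 and 44.2 on treatment arrays, 68.5, 63.6 and 58.0 on model arrays, and 50.9, 47.2 and 58.6 on control arrays. Treatment arrays were below all others, with a log2 fold change of -0.56 from model (SE 0.10, limma adjusted p = 0.286). The median of the list was 0.04 in treatment against model and -0.15 in treatment against control, where the medians of all genes were -0.05 and -0.04.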

How the data were processed

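The deposited values are probe set intensities on a linear scale, as a table of 31099 probe sets by 9 arrays. They were made with MAS5, the summary method of Affymetrix, per the submitters' processing notes, whose scaling and settings were not given in the labels or headers. Probe sets were named from the platform annotation, with symbols updated through RefSeq gene numbers. Of 31042 probe sets 20826 had 1 symbol, 436 several and 9780 none, and those with 1 symbol alone were used.

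Values were taken as log2(intensity + 16). Probe sets under the 40th array percentile on more than 6 of 9 arrays were dropped, and the brightest of each gene by mean was used, leaving 10973 genes. Comparisons were contrasts of 1 limma 3.58.1 fit (R 4.3.3, variance trend, all 9 arrays, two-sided), adjusted over all genes, and the fit was tested on simulated data. The simulated arrays had independent noise and no array apart from its group, so that test does not cover such an array. The number of arrays limits the precision. Alternatives were other pseudocounts, normalizations, filters, probe set rules and variance models, the compared arrays alone and each array left out. The genes, lists and tests were chosen with earlier results of these data known. All 10 clock genes are named throughout, and from each list a few genes with the smallest p or a defined role in the clock, some of them (Bmal1, Hlf, Npas2 and Rora) chosen after their values were seen. Promoter windows are from RefSeq, build GRCr8, trimmed to the 250 bases before each start. The probe sets are not placed on that build. Plots used matplotlib 3.10.9 (Python 3.11.15).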

Additional observations from a re-analysis of the deposited data

How the results depend on the processing

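In 710 re-estimates of the 10 clock genes under the alternatives, 0 clock genes passed in any comparison (smallest adjusted p = 0.0598) and 51 had the opposite sign. No paired analysis was possible because the array numbers differ between groups. Dbp, Nr1d1, Nr1d2, Per3 and Tef stayed below 0 in treatment against model under every alternative, at -0.82 to -0.40, -0.85 to -0.30, -0.98 to -0.52, -0.63 to -0.23 and -0.31 to -0.12.

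Quantile normalization turned Per2 to 0.049, Cry2 to 0.051 and Clock to 0.019 in treatment against control, Per1 to 0.048, Per2 to 0.078 and Clock to 0.09 in treatment against model, and Per2 to 0.01 in both induced groups against control. The mean of all probe sets turned Tef to -0.007 in model against control, Per2 to 0.073 and Cry2 to 0.077 in treatment against control, Per2 to 0.12 and Cry2 to 0.007 in treatment against model, and Per2 to 0.013 and Tef to -0.067 in both induced groups against control. The causes were not tested.

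With each array left out in turn, the estimates whose sign turned had these ranges. In model against control they were -0.26 to 0.206 for Per2, -0.099 to 0.145 for Per3 and -0.205 to 0.173 for Cry1. In treatment against control they were -0.276 to 0.191 for Per2, -0.125 to 0.092 for Cry2 and -0.453 to 0.083 for Dbp. In treatment against model they were -0.17 to 0.073 for Per1, -0.107 to 0.076 for Per2, -0.324 to 0.054 for Cry1, -0.21 to 0.007 for Cry2, -0.042 to 0.021 for Clock and -0.339 to 0.03 for Hlf. In both induced groups against control they were -0.268 to 0.198 for Per2, -0.178 to 0.057 for Cry1, -0.033 to 0.089 for Cry2, -0.143 to 0.393 for Dbp, -0.132 to 0.126 for Nr1d1, -0.065 to 0.341 for Nr1d2 and -0.039 to 0.109 for Tef.

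Of 336 re-estimates of the listed genes, 8 passed: Bhlhe40, Tsc22d3 and Dtx4 without control 43, and Sgk1 and Hsd11b1 without model 23 or with the compared arrays alone. The count of all genes that passed in model against control was 3 with all arrays and 1384 without control 43.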
